A study of Mus musculus with 18 samples.

Results

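The genes described here are 36 genes that make, fold, crosslink or cut the extracellular matrix of fibroblasts. They were chosen by name, as a list of collagens, matrix glycoproteins, elastic fibre proteins, crosslinking enzymes, small proteoglycans and matrix proteases with their inhibitors. Earlier results of these data were known at that choice, so counts set beside the share of all genes describe the list and do not test it. All 36 were among the 47937 gene IDs of the deposited count table, and 33 had enough counts to be tested. The remaining 3, Eln, Lum and Thbs2, held 48, 53 and 21 counts over all 18 libraries.

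RNA was measured in mouse embryonic fibroblasts (MEF), grown in medium with tetracycline-free serum and hygromycin, with a dCas9, a Cas9 that binds but does not cut DNA, under doxycycline control. The dCas9 was aimed at the major satellite repeat (MSR), the tandem repeat around mouse centromeres. What guide the control line carried is not in the labels. The control line carried dCas9-control and was induced with 10 ng/ml doxycycline for 24 h, the repressor line carried dCas9-KM and was induced with 100 ng/ml for 24 h, and the activator line carried dCas9-VPR and was induced with 10 ng/ml for 6 h. Each line had 3 libraries labelled untreated (uninduced) and 3 induced libraries, which made 6 groups. Dose and time differed between the lines, so the effector, the dose and the time cannot be told apart when lines are compared. Whether a group's libraries are separate cultures, and whether a line is 1 clone, is not in the labels. The p-values then cover only library-to-library spread, which may be technical.

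Fibrillar collagens are secreted as triple helices of 3 chains, such as the product of Col1a1 and Col1a2 in type I collagen, and assemble into fibres outside the cell. The chains are hydroxylated and folded in the endoplasmic reticulum, trimmed by proteases after secretion and then crosslinked by lysyl oxidases. Fibroblasts are the main makers of this matrix, which also holds fibronectin, fibrillin and fibulins. Small leucine-rich proteoglycans bind its collagen fibrils and set their width. Metalloproteinases degrade the matrix, and the tissue inhibitors of metalloproteinases restrain them.

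The start regions of 4 members are printed first, picked for their calls on TMM scaling, which is described below. Fmod, Col3a1 and Serpinh1 were called in opposite directions in the activator and repressor inductions, and Col6a3 was called lower in both. Scaling to mitochondrially encoded genes turned the activator rises of Fmod, Col3a1 and Serpinh1 into falls. A second method, DESeq2, called Col6a3 in neither line. RefSeq promoters (build GRCm38.p6) were at hand for 24 of the 36 members. Each of the 4 sequences printed here is the 250 bases before the gene's start, 5′ to 3′ on the gene's strand, with no base in an annotated exon. Capitals mark TATAAA (the TATA box core) or GGGCGG (the GC box).
Fmod, chr1:134037004-134037253, plus strand: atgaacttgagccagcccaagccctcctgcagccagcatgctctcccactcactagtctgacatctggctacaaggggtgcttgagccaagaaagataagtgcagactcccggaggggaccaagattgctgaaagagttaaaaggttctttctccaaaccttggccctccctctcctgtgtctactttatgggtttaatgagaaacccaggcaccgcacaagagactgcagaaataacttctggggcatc
Col3a1, chr1:45311288-45311537, plus strand: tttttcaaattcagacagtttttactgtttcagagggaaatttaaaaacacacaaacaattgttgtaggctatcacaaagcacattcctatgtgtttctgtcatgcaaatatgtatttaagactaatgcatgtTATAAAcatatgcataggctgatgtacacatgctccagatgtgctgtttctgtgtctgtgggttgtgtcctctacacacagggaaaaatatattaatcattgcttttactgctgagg
Serpinh1, chr7:99353240-99353489, minus strand: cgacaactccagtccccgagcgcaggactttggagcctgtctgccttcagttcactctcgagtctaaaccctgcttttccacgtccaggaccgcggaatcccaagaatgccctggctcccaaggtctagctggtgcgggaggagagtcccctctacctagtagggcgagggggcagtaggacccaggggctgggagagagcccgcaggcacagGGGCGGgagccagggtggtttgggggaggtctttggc
Col6a3, chr1:90843972-90844221, minus strand: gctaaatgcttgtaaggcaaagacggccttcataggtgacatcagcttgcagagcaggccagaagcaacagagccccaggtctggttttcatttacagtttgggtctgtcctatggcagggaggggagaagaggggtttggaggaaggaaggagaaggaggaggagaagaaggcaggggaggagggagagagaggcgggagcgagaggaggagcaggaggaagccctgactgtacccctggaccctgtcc

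Both strands were searched for 4 motifs in all member windows, including those that overlap annotated exons. The windows of Col4a1, Col4a2, Fbln2 and Fbn1 lay in annotated exons over all 250 bases. TATAAA lay in the Col3a1 window, with its first base at position -117 from the start, and in 5 of the 28 windows of the 24 members (17.9%; Col3a1, Postn, Thbs2 and Tnc), against 12.4% of all 32851 RefSeq promoters of the same length. GGGCGG lay in the Serpinh1 window at position -37 and in 18 member windows (64.3%, of 16 members), against 32.7% of all promoters. CCAAT, the CCAAT box core, was found in 9 member windows (32.1%, against 33.8% of all promoters). TGANTCA, the core bound by AP-1 factors, was found in 1 member window, that of Col6a1 (3.57%, against 6.75% of all promoters). None of the 4 motifs was in the Fmod or Col6a3 window. These matches describe letters in a window and are not evidence of binding.

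The libraries held between 14928765 and 25262912 counts. At least 1 count was found for 22641 to 23420 genes after induction of the activator and for 20107 to 21331 in the other 15 libraries. In those 15 libraries mitochondrially encoded genes took 0.582% to 0.676% of the counts, and 0.92% to 0.974% after induction of the activator. Of 8 mesenchymal markers, 7 reached 1 CPM (counts scaled to a common library size) in at least 1 group, led by Vim at 2513 CPM, while Thy1 stayed near 0 (at most 0.02 CPM). Their summed level ran from 2832 to 3337 CPM over all libraries. At that threshold 1 of 6 epithelial markers was found (Krt14, 3.36 CPM), 2 of 5 macrophage markers (Cd68 the higher at 5.10 CPM), 1 of 5 muscle markers (Myh3, 1.54 CPM), none of 5 osteoblast markers, 1 of 5 chondrocyte markers (Sox9, 5.82 CPM) and 2 of 5 adipocyte markers (Lpl, 168 CPM). The summed endothelial markers stood at 19.2 to 24.1 CPM in the induced activator libraries and at 1.25 CPM or less elsewhere. That sum was almost wholly Pecam1. The highest group mean of Tek was 0.91 CPM, and those of Cdh5, Emcn and Kdr were at or under 0.18 CPM.

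In all, the 36 genes took between 2.78% and 3.19% of the counts of a library. Levels between genes are compared here as CPM per kilobase of exon in the uninduced control line. Col1a1, the main chain of type I collagen, stood highest at 1238, followed by Serpinh1, the collagen chaperone HSP47, at 538 and Fn1, fibronectin, at 426. Col1a2 (317), Sparc (301), a collagen-binding glycoprotein of the matrix, and Bgn (213), the proteoglycan biglycan, came next. Among the fibrillar collagens Col3a1 (112), Col5a1 (105) and Col5a2 (103) lay close together, and Col11a1 was far lower (1.56). Col6a3, which encodes the long chain of type VI collagen, stood at 0.483, against 88.3 for Col6a1 and 39.4 for Col6a2. At the low end were Postn (periostin, 0.087), Lum (lumican, 0.073), Eln (elastin, 0.014) and Thbs2 (thrombospondin 2, 0.0044). The counts of Lum over the 3 libraries of a group ran from 2 to 15, those of Eln from 6 to 10 and those of Thbs2 from 2 to 6, which is too few to compare groups.

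**Figure D1:**
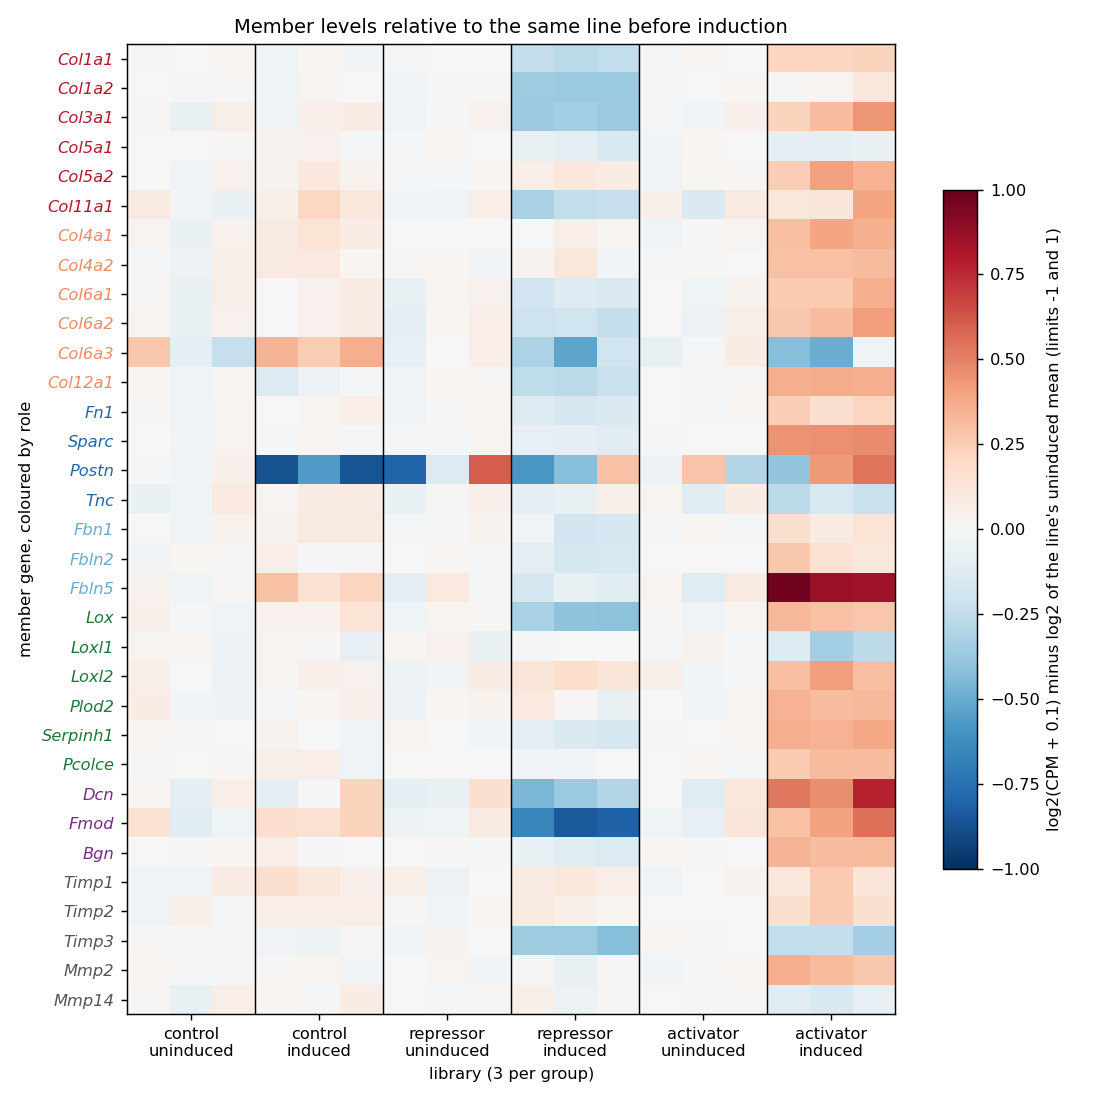
Each row is 1 of the 33 tested members and each column 1 library, with colour giving log2(CPM + 0.1) minus the log2 uninduced mean of the same line, on TMM scaling. Most rows are red in the induced activator libraries, where a mitochondrial scaling turned most of them lower, and the collagen rows, apart from Col5a2, Col4a1 and Col4a2, are blue in the induced repressor libraries.

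On induction of the activator line, 26 of the 33 tested members rose, 6 fell and 1 (Postn) was not called. A rise or fall here is an adjusted p under 0.05 in edgeR's quasi-likelihood test, Benjamini-Hochberg adjusted over 16216 genes, on TMM scaling, which sets the typical gene near no change. In this comparison 75.3% of all tested genes were called, 38.2% higher and 37.2% lower. Their median log2 fold change was 0.29 against 0.0042 for all tested genes, and 68.1% of all genes lay below that median. The groups did not overlap in 30 of the 33 members, against 76.3% of all genes. The direction is relative to the typical gene: with libraries scaled to total counts 15 members were higher and 8 lower, and with scaling to mitochondrially encoded genes 1 was higher and 31 lower. The median of all genes moved to -0.22 and -0.74 under those scalings and the median of the members to 0.072 and -0.45. A scaling shifts all genes alike, so the gap of 0.29 between members and all genes was bound to stay. Without the low-count filter, which changes the genes compared, the gap was 0.196. On TMM scaling the summed mesenchymal markers went from 2832 to 2887 CPM in the uninduced libraries to 2939 to 3203 CPM in the induced ones, and the summed adipocyte markers from 130 to 135 CPM to 163 to 173 CPM. Their part in the members' changes was not tested.

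The largest rise was in Fbln5, fibulin 5, which binds elastin and is needed for elastic fibres (chromosome 12, 101746565 to 101819055, minus strand). It stood at 20.3, 18.3 and 21.2 CPM in the uninduced libraries and at 39.1, 36.4 and 35.95 CPM in the induced ones. The groups lay far apart, and the log2 fold change was 0.91 ± 0.059 (SE, n = 3 libraries per group, edgeR adjusted p = 1.16e-24). The other elastic fibre genes rose less, Fbln2 (fibulin 2) by a log2 value of 0.18 and Fbn1 (fibrillin 1, the backbone of microfibrils) by 0.13.

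The 3 tested small leucine-rich proteoglycans, which bind collagen fibrils and set their width, all rose on TMM scaling. Dcn, decorin (chromosome 10, 97479609 to 97518143, plus strand), went from 83.8, 77.3 and 91.0 CPM to 121, 116 and 143 CPM. All induced libraries lay above all uninduced ones, with a log2 fold change of 0.61 ± 0.10 (SE, n = 3 libraries per group, edgeR adjusted p = 9.42e-05). Fmod, fibromodulin (chromosome 1, 134037254 to 134048277, plus strand), went from 15.3, 14.9 and 17.1 CPM to 19.4, 20.9 and 23.1 CPM (log2 fold change 0.44 ± 0.073, edgeR adjusted p = 1.1e-07). Bgn, from 1315 to 1644 CPM on average, rose by 0.32.

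Sparc (chromosome 11, 55394500 to 55423183, minus strand) showed a tight rise from 1128, 1141 and 1144 CPM to 1553, 1559 and 1578 CPM (log2 fold change 0.46 ± 0.024, edgeR adjusted p = 4.69e-30). Fn1 went from 5216 ± 75 CPM to 6020 ± 177 CPM (SD, n = 3), a log2 change of 0.21. Tnc, tenascin C, went the other way, from 53.3, 48.2 and 55.0 CPM to 43.4, 46.6 and 44.7 CPM (log2 fold change -0.21 ± 0.048, edgeR adjusted p = 5.3e-05). The 2 groups of Tnc lay close together without overlapping. Postn had under 0.8 CPM in the libraries of every group, apart from 1 uninduced repressor library at 0.81 CPM, and its log2 fold change of 0.27 ± 0.46 was not called (edgeR adjusted p = 0.602).

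Of the 6 fibrillar collagens 5 rose and Col5a1 fell. Col5a2 (chromosome 1, 45374321 to 45503282, minus strand), a chain of the type V collagen that nucleates fibrils, went from 858, 891 and 882 CPM to 1039, 1164 and 1114 CPM (log2 fold change 0.33 ± 0.028, edgeR adjusted p = 5.71e-18). Its partner chain Col5a1 went from 927, 955 and 945 CPM to 880, 883 and 899 CPM (log2 fold change -0.086 ± 0.025, edgeR adjusted p = 0.00158, but 0.0951 in DESeq2). Col3a1 rose by 0.33 from a mean of 1065 to 1336 CPM and Col1a1 by 0.22 from 8056 to 9372 CPM. Col1a2 stood at 3807, 3861 and 3910 CPM before and at 3889, 3943 and 4176 CPM after induction. Its groups overlapped and its change of 0.053 was barely called (edgeR adjusted p = 0.0496), which was lost without uninduced library 1 (0.177) and without induced library 3 (0.387). Col11a1, a minor fibril chain of cartilage type, rose by 0.23 (edgeR adjusted p = 0.00366) but was not called without uninduced library 2 (0.0534) or induced library 3 (0.16).

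Of the 6 other collagens, 5 rose and Col6a3 fell. Col12a1, which coats fibrils, went from 364, 363 and 369 CPM to 471, 473 and 470 CPM (log2 fold change 0.37 ± 0.027, edgeR adjusted p = 1.13e-21). Col4a1, the main chain of basement membrane collagen, rose by 0.35 ± 0.028 (edgeR adjusted p = 7.95e-20) from 338, 349 and 352 CPM to 427, 454 and 442 CPM, and its partner Col4a2 rose by 0.30. Col6a1 and Col6a2 rose by 0.29 and 0.33. Col6a3 stood at 5.87, 6.12 and 6.50 CPM before and at 4.57, 4.34 and 5.98 CPM after induction. Its groups overlapped and the fall of 0.29 on the log2 scale (edgeR adjusted p = 0.0349) was not called without uninduced library 2 (0.0726) or 3 (0.0856) or induced library 1 (0.154) or 2 (0.163), or by DESeq2 (0.118).

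Of the 6 genes of folding, processing and crosslinking 5 rose. Serpinh1 (chromosome 7, 99345376 to 99353239, minus strand) went from 1297, 1307 and 1324 CPM to 1685, 1665 and 1707 CPM (log2 fold change 0.36 ± 0.025, edgeR adjusted p = 1.99e-23). Plod2, a lysyl hydroxylase whose product prepares collagen for crosslinks, rose by 0.33, Pcolce, the enhancer of procollagen C-proteinase, by 0.29, Lox, the main lysyl oxidase, by 0.30 and Loxl2, another lysyl oxidase, by 0.33. Loxl1, the lysyl oxidase tied to elastic fibres, fell by 0.24 from 109, 114 and 110 CPM to 101, 87.8 and 92.7 CPM (SE 0.037, edgeR adjusted p = 2.57e-08).

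The proteases and inhibitors were divided. Mmp2, gelatinase A, rose by 0.32, while Mmp14, the membrane protease that activates it, fell by 0.11, a fall not called by DESeq2 (adjusted p = 0.0945). Of the tissue inhibitors, Timp1 rose by 0.16 and Timp2 by 0.19. Timp3, the inhibitor that stays bound to matrix (chromosome 10, 86300372 to 86349506, plus strand), went from 969, 943 and 961 CPM to 809, 813 and 758 CPM (log2 fold change -0.27 ± 0.026, edgeR adjusted p = 9.28e-16). Every induced library lay below every uninduced one.

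**Figure D2:**
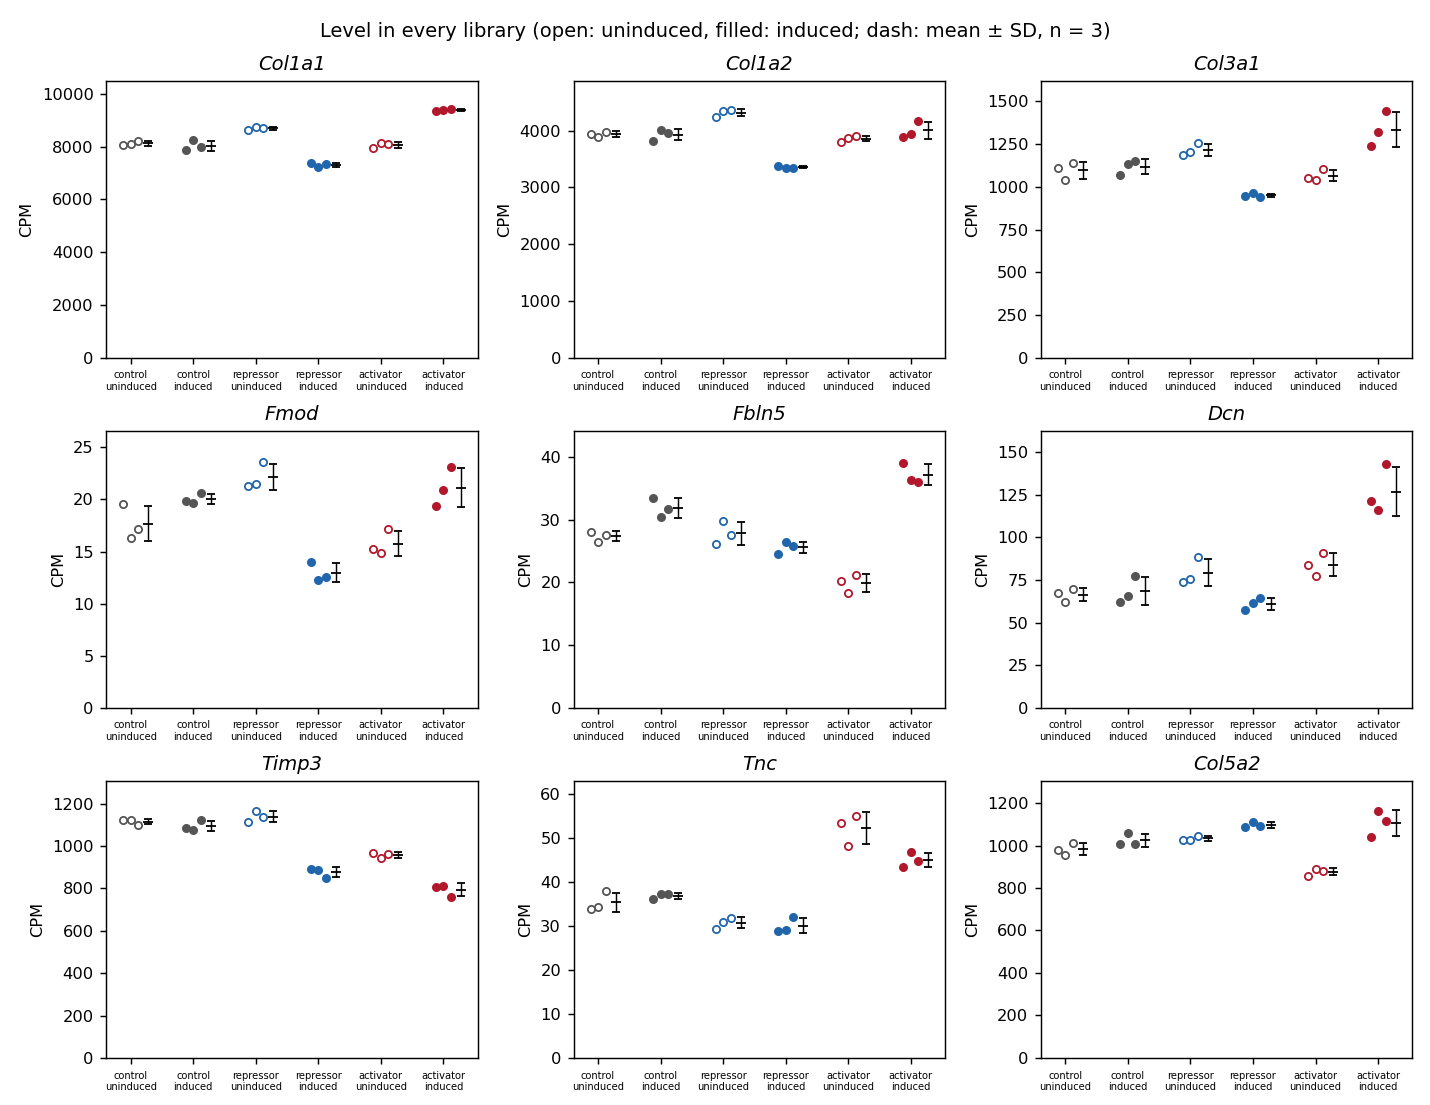
CPM in each of the 18 libraries for 9 members, with open points for uninduced, filled points for induced libraries and a dash with bars for mean ± SD (n = 3), on TMM scaling and axes from 0. Fbln5 and Dcn are highest in the induced activator libraries, while Fmod and Col1a2 are lowest in the induced repressor libraries. The rises in the activator line, Fbln5 excepted, turned into falls when libraries were scaled to mitochondrially encoded genes.

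On induction of the repressor line, 18 of the 33 tested members fell, 2 rose and 13 were not called. Of all tested genes 9.81% were called, 4.59% lower and 5.21% higher. The members' median log2 fold change was -0.13 against -0.0010 for all genes, and 18.8% of all genes lay below it. The groups did not overlap in 24 members, against 26.7% of all genes. With libraries scaled to total counts 14 members were lower, and the calls of Col6a1, Col6a2, Col6a3 and Sparc were lost. With scaling to mitochondrially encoded genes 13 were lower. There the calls of Col5a1, Col6a3, Sparc, Fbn1, Bgn and Serpinh1 were lost and Dcn was called. The log2 changes of these genes stayed below 0. The summed share of the 36 genes went from 3.11% to 3.19% of the counts in the uninduced libraries to 2.78% to 2.82% in the induced ones. The summed mesenchymal markers, mostly Vim, also went down, from 3172 to 3215 CPM to 2908 to 2994 CPM without overlap. The part of these markers in the members' changes was not tested.

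Fmod fell most. It went from 21.3, 21.5 and 23.6 CPM to 14.0, 12.3 and 12.6 CPM (log2 fold change -0.77 ± 0.076, SE, n = 3 libraries per group, edgeR adjusted p = 1.33e-13). The induced libraries also lay below the uninduced control libraries, whose lowest value was 16.3 CPM. Dcn stood at 74.1, 75.4 and 88.4 CPM before and at 57.6, 61.3 and 64.6 CPM after induction. Its groups did not overlap, yet its log2 fold change of -0.37 ± 0.11 missed the threshold in edgeR (adjusted p = 0.0613), while DESeq2 (0.00747) and limma-voom (0.00102) called it lower. Bgn fell by 0.11.

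All 3 chains that make types I and III collagen fell. Col1a2 (chromosome 6, 4504814 to 4541544, plus strand) went from 4242, 4346 and 4356 CPM to 3373, 3342 and 3344 CPM (log2 fold change -0.36 ± 0.025, edgeR adjusted p = 3.12e-21). Col3a1 (chromosome 1, 45311538 to 45349706, plus strand) went from 1184, 1205 and 1254 CPM to 946, 961 and 943 CPM (log2 fold change -0.35 ± 0.050, edgeR adjusted p = 0.000307). Col1a1 (chromosome 11, 94936224 to 94953042, plus strand) went from 8622, 8730 and 8713 CPM to 7364, 7222 and 7338 CPM (log2 fold change -0.25 ± 0.024, edgeR adjusted p = 4.03e-14). The induced levels of these 3 genes were also below every library of the control line.

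Col5a1 fell by 0.11 and Col11a1 by 0.26, the latter from 21.1, 20.8 and 22.4 CPM to 17.2, 18.03 and 18.2 CPM (SE 0.071, edgeR adjusted p = 0.00668). Col5a2 alone of the 6 fibrillar collagens was called higher, by 0.084, from 1028, 1028 and 1046 CPM to 1085, 1113 and 1090 CPM (edgeR adjusted p = 0.0372). That call was lost when any 1 of the 6 libraries was left out (adjusted p 0.0567 to 0.185) and by DESeq2 (0.0882), and that of Col11a1 without uninduced library 3 (0.0529). Of the other collagens Col12a1, Col6a1, Col6a2 and Col6a3 fell, by 0.25, 0.15, 0.21 and 0.35. Col6a3 went from 7.49, 7.96 and 8.31 CPM to 6.34, 5.48 and 6.89 CPM, and its call (edgeR adjusted p = 0.0377) was lost without uninduced library 2 (0.106) or 3 (0.132) or induced library 1 (0.0721) or 2 (0.283), and by DESeq2 (0.0989) and limma-voom (0.0526). The basement membrane chains Col4a1 and Col4a2 were not called, at 0.032 ± 0.028 and 0.044 ± 0.031.

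Lox fell from 409, 428 and 425 CPM to 336, 317 and 316 CPM (log2 fold change -0.38 ± 0.029, edgeR adjusted p = 6.45e-19), while Loxl2 rose by 0.14 from 76.4, 77.9 and 83.7 CPM to 86.3, 89.5 and 86.2 CPM (edgeR adjusted p = 0.00681). Loxl1, Plod2 and Pcolce were not called, at -0.0051, 0.012 and -0.021, and Serpinh1 fell by 0.14. The Loxl2 call was lost without induced library 2 (0.0769) or uninduced library 1 (0.0861) or 2 (0.0568). Timp3 fell by 0.38 ± 0.026 from 1115, 1167 and 1136 CPM to 891, 890 and 851 CPM (edgeR adjusted p = 5.12e-21), and none of Timp1, Timp2, Mmp2 and Mmp14 was called. Fn1 fell by 0.15, Sparc by 0.093, Fbn1 by 0.13 and Fbln2 by 0.14, while Tnc, Postn and Fbln5 were not called. The calls of Sparc and Fbn1 were lost without uninduced library 3 (0.0719) and without induced library 2 (0.0677).

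Set beside each other, 15 of the 33 members rose in the activator line and fell in the repressor line, a pattern shown by 1.49% of all tested genes. They were Col1a1, Col1a2, Col3a1, Col11a1, Col12a1, Col6a1, Col6a2, Fn1, Sparc, Fbn1, Fbln2, Lox, Serpinh1, Bgn and Fmod. These comparisons share no library, but the rises hold relative to the typical gene, as above, and Col1a2 is among those with a fragile call. Col5a1, Col6a3 and Timp3 were called lower in both (2.5% of all genes), and Col5a2 and Loxl2 higher in both (2.08%). A further 9 rose in the activator line only by the threshold (Col4a1, Col4a2, Dcn, Fbln5, Mmp2, Pcolce, Plod2, Timp1 and Timp2), a pattern shown by 34.6% of all genes, and 3 fell there only by the threshold (Loxl1, Mmp14 and Tnc), against 32.5%. The difference between the lines was not tested directly.

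**Figure D3:**
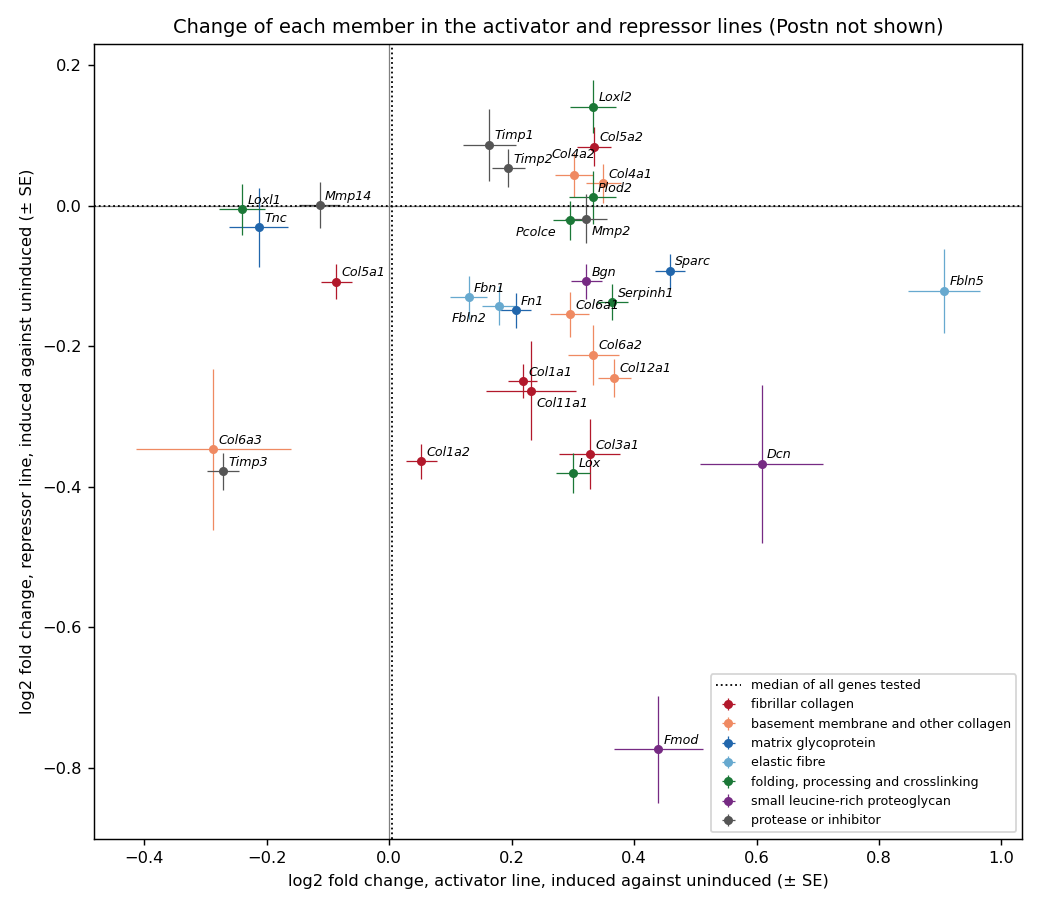
Log2 fold change on induction of 32 members in the activator line (horizontal) against the repressor line (vertical), with bars of 1 SE, colours for the role and dotted lines at the median of all genes tested, on TMM scaling. Most members lie to the right of and below the medians, with Fmod lowest at -0.77 and Fbln5 farthest right at 0.91. Under mitochondrial scaling most horizontal values fell below 0.

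In the control line 1 of the 33 members was called, against 0.463% of all tested genes, and the members' median log2 change was 0.032 against 0.0028 for all genes. The called member was Fbln5, at 28, 26.5 and 27.6 CPM before and 33.5, 30.4 and 31.7 CPM after induction (log2 fold change 0.22 ± 0.056, edgeR adjusted p = 0.0479). Its groups did not overlap, but the call was lost without any 1 of the 6 libraries (adjusted p 0.054 to 0.253) and with limma-voom (0.0724). No member was called lower by edgeR, DESeq2 or limma-voom. At an unadjusted p under 0.05 edgeR gave 12 of the 33 members, against 10.7% of all genes, and the groups of 6 members did not overlap, against 15.5% of all genes. The type I chains moved by -0.017 ± 0.024 (Col1a1) and -0.0047 ± 0.025 (Col1a2).

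The change on induction was then compared between lines by an interaction term. Both interactions use the same 6 control libraries. The activator line's change exceeded that of the control line in 22 members and fell short of it in 6, against 63.7% of all genes called, 30.8% higher and 33% lower. The direction is again relative to the typical gene, with 4 members higher and 11 lower on total counts and 0 higher and 30 lower on mitochondrial scaling. Fbln5 (0.69 ± 0.082, edgeR adjusted p = 7.37e-12), Dcn (0.55 ± 0.15, 0.00569), Sparc (0.46 ± 0.034, 1.02e-20) and Col12a1 (0.43 ± 0.038, 3.37e-17) led on the higher side. Col6a3 led on the lower side (-0.59 ± 0.17, 0.00169). In the control line Col6a3 went from 7.02, 5.39 and 4.92 CPM to 7.32, 6.92 and 7.48 CPM. That rise was not called and its groups overlapped, but it enters both interactions of Col6a3. Fmod differed by 0.26 (edgeR adjusted p = 0.0219), a call lost without uninduced activator library 1 or 2, induced activator library 3 or uninduced control library 1 (0.0536 to 0.161). That of Col5a1 (-0.11) was lost without uninduced activator library 2 (0.0504).

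The repressor line's change was lower than that of the control line in 18 members and higher in none, against 2.73% of all genes called and 1.54% called lower. DESeq2 called 18 lower and limma-voom 20, and neither called any higher, while scaling to mitochondrially encoded genes left 7 lower. Fmod (-0.96 ± 0.10, edgeR adjusted p = 2.66e-11), Col6a3 (-0.65 ± 0.16, 0.0081), Lox (-0.46 ± 0.040, 4.51e-15), Col11a1 (-0.39 ± 0.097, 0.00905), Col3a1 (-0.38 ± 0.071, 0.00714), Col1a2 (-0.36 ± 0.035, 5.69e-13), Timp3 (-0.35 ± 0.037, 7.08e-12) and Fbln5 (-0.34 ± 0.082, 0.00614) differed most. Fbln5 differed between these lines, while its change of -0.12 within the repressor line was not called. The rise of Fbln5 in the control line, a call lost without any 1 of 6 libraries, enters both interactions of Fbln5. Calls were lost on leaving out 1 library for Fbln5 (without uninduced repressor library 2, 0.0737), Col11a1 (without induced control library 2, 0.0505) and Col6a3 (without uninduced control library 2 or induced repressor library 2, 0.053 and 0.0659). Those of Bgn (8 libraries, up to 0.183), Col5a1 (7 libraries, up to 0.153), Col6a2 (4 libraries, up to 0.0632) and Serpinh1 (4 libraries, up to 0.0794) were lost as well.

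Some members already differed between the lines before induction. The uninduced activator line held 9 members higher and 8 lower than the uninduced control line, against 19.5% of all genes called, 8.92% higher and 10.5% lower. Timp1 stood at 54.1, 55.5 and 56.8 CPM against 33.5, 33.7 and 36.5 CPM (log2 difference 0.69 ± 0.047, edgeR adjusted p = 1.41e-21), and Tnc at 53.3, 48.2 and 55.0 CPM against 33.7, 34.3 and 37.9 CPM (0.57 ± 0.049, 2.06e-16). Dcn (0.34) was higher and Fbln5 (-0.46 ± 0.061, 3.2e-09), Col11a1 (-0.34), Col12a1 (-0.23), Timp3 (-0.22) and Col5a2 (-0.16) were lower. Postn differed by -1.18 ± 0.39 (edgeR adjusted p = 0.0215) on 22 against 45 counts over 3 libraries. The calls of Dcn (0.0641 to 0.166) and Postn (0.0522 to 0.0807) were lost without uninduced activator library 1 or 3 or uninduced control library 1 or 2, and that of Dcn also without uninduced control library 3. The count of higher members fell to 4 without uninduced activator library 3 or uninduced control library 2 and to 5 without uninduced control library 1, and the count of lower members fell to 5 without uninduced activator library 1 or uninduced control library 1.

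Set against the control line, Fbln5, Col12a1 and Col5a2 started low in the activator line and reached 37.1, 471 and 1106 CPM on average after induction, against 31.9, 411 and 1024 CPM in the induced control line. The Col5a2 libraries of these induced groups overlapped. On total counts the same levels were 32.5 against 32.9 (Fbln5), 413 against 424 (Col12a1) and 970.2 against 1057 CPM (Col5a2), so the order on TMM scaling was not kept. Tnc started high and stood at 44.9 against 36.8 CPM after its fall, but at 39.4 against 38.0 CPM on total counts, where the groups overlapped. Timp3 started low and ended at 793.5 against 1096 CPM, and at 695 against 1132 CPM on total counts. Per mitochondrial count all 5 genes were lower in the induced activator libraries than in every induced control library. The induced groups of these lines were not tested against each other, and the starting levels and the changes on induction come from the same uninduced libraries.

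The uninduced repressor line held 5 members higher and 1 lower than the uninduced control line, against 1.56% of all genes called, 0.863% higher and 0.697% lower. They were Col6a3 (0.44 ± 0.11, edgeR adjusted p = 0.0255), Fmod (0.32 ± 0.070, 0.00391), Col1a2 (0.13 ± 0.025, 0.000374), Col6a1 (0.13 ± 0.033, 0.0237) and Col1a1 (0.097 ± 0.024, 0.0124), with Tnc lower (-0.20 ± 0.054, 0.0385). The same uninduced repressor libraries enter the comparison on induction. After induction Col6a3 stood at 6.24 ± 0.71 CPM, within the range of the uninduced control libraries (4.92 to 7.02 CPM), and Col6a1 at 380 ± 8.7 CPM, also within their range (368 to 404 CPM), whereas Fmod, Col1a1 and Col1a2 ended below every control library. All of these calls but that of Col1a2 were lost on leaving out 1 library, and between 1 and 6 members were then called higher. This held for Col1a1 and Col6a1 without uninduced control library 1 or 2 or uninduced repressor library 2 or 3 (0.0834 to 0.102 and 0.0759 to 0.218), and for Col6a3 without uninduced control library 2 or 3 or uninduced repressor library 2 or 3 (0.103 to 0.212). It held for Fmod without uninduced control library 2 or uninduced repressor library 3 (0.0829 to 0.125), and for Tnc without any of 5 libraries, all but uninduced control library 1 (0.0699 to 0.24). DESeq2 called neither Col6a3 (0.0989) nor Tnc (0.102).

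Ratios of the counts of 2 members within a library do not depend on how libraries are scaled. The ratio of Col1a1 to Col1a2, the partner chains of type I collagen, was 2.06 ± 0.024 (SD, n = 3) in the uninduced control libraries. It went from 2.09, 2.11 and 2.07 to 2.40, 2.38 and 2.26 on induction of the activator line and from 2.03, 2.01 and 2.00 to 2.18, 2.16 and 2.19 in the repressor line. In both lines the induced libraries lay above the uninduced ones, with changes of 0.17 ± 0.029 and 0.11 ± 0.0095 on the log2 scale (exact two-sided permutation p = 0.1 each, the smallest that 3 against 3 libraries can give). In the control line the groups overlapped (change -0.012, exact permutation p = 0.4). The ratio went up in the activator line, where Col1a1 was called higher than the typical gene and Col1a2 only barely so. It also went up in the repressor line, where both chains were called lower.

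The ratio of Col5a1 to Col5a2 fell from 1.08, 1.07 and 1.07 to 0.847, 0.759 and 0.807 in the activator line and from 0.882, 0.907 and 0.880 to 0.805, 0.772 and 0.760 in the repressor line, with no overlap in either (changes of -0.42 ± 0.046 and -0.19 ± 0.029, exact permutation p = 0.1 each). The uninduced activator line began above the control line, at 1.08 on average against 0.911. By contrast Col4a1 to Col4a2 stayed between 1.92 and 2.14 in all 18 libraries and Col6a1 to Col6a2 between 1.11 and 1.28, and neither separated the groups on induction in any line. Timp3 to Timp2 went from 2.10, 2.05 and 2.09 to 1.57, 1.48 and 1.47 in the activator line and from 2.59, 2.78 and 2.63 to 1.96, 2.01 and 1.96 in the repressor line (-0.47 and -0.43, exact permutation p = 0.1 each). It also went from 2.69, 2.53 and 2.59 to 2.43, 2.40 and 2.50 in the control line, a smaller change of -0.091 without overlap (exact permutation p = 0.1). These 6 ratios were compared in 5 contrasts each, and none can pass a threshold of 0.05 with 3 libraries per group.

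**Figure D4:**
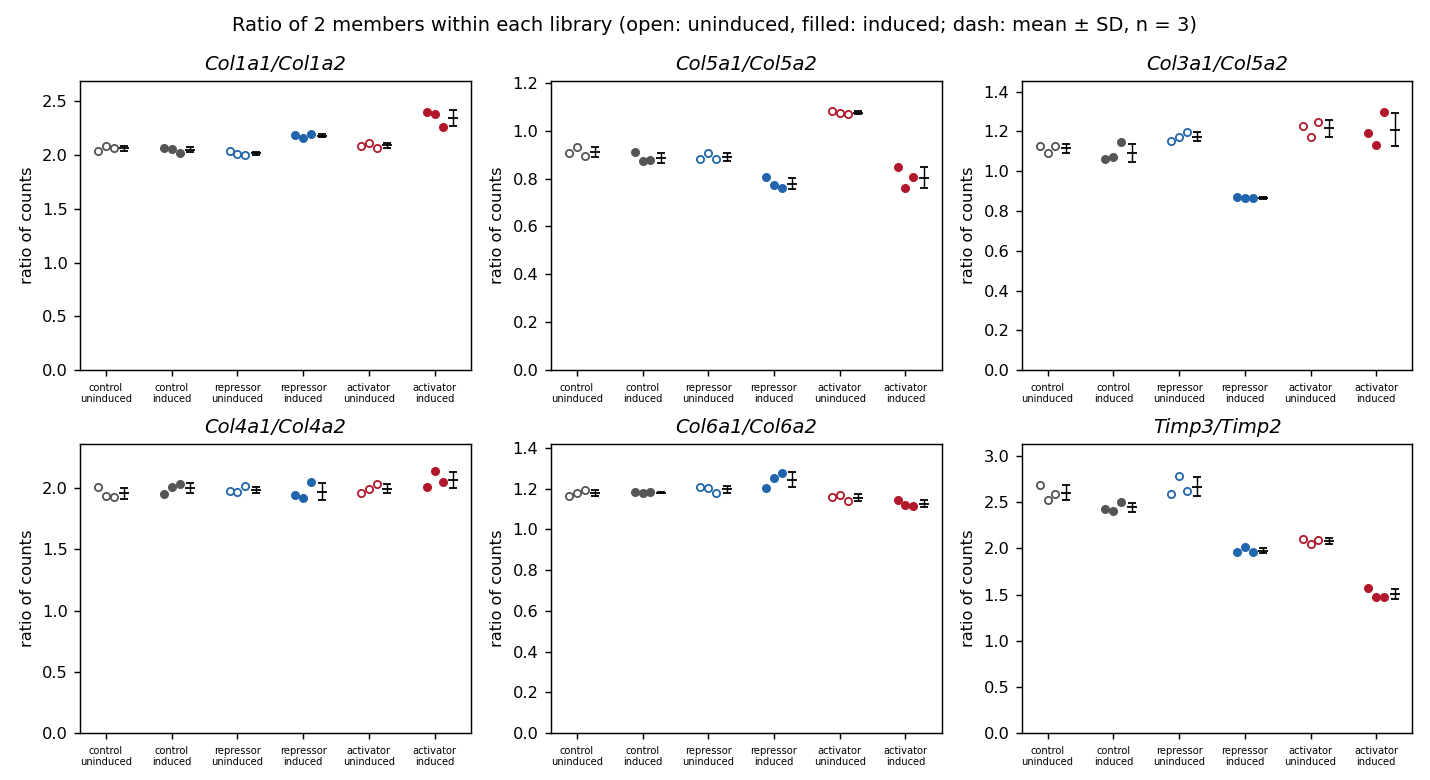
Ratio of the counts of 2 members in each of the 18 libraries, with open points for uninduced, filled points for induced libraries and mean ± SD (n = 3) as a dash with bars. The Col3a1 to Col5a2 ratio separates the induced repressor libraries (mean 0.867) from the other 15, while Col4a1 to Col4a2 stays between 1.92 and 2.14.

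Members that lie next to each other on a chromosome did not always move alike. Col3a1 and Col5a2 lie 24.6 kb apart on chromosome 1 with their 3′ ends facing. Their ratio went from 1.15, 1.17 and 1.20 to 0.872, 0.863 and 0.865 in the repressor line (change -0.44 ± 0.018, exact permutation p = 0.1) and overlapped between the groups of the activator line (1.23, 1.17 and 1.25 against 1.19, 1.13 and 1.30). The head-to-head pair Col4a1 and Col4a2, whose first exons overlap by 22 bases on opposite strands, and the pair Col6a2 and Col6a1, which lie 85.2 kb apart on chromosome 10 on the same strand, moved together. Dcn and Lum lie 47.0 kb apart on chromosome 10, and Dcn had 3403 to 6744 counts per group where Lum had 2 to 15.

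Genes outside the list, taken from 7 lists of the same pathways, showed no single direction on induction of the activator or the repressor line. In the activator induction 45.2% of the 126 tested genes of these lists rose and 25.4% fell, against 38.2% and 37.2% of all tested genes. There 8 of 17 other collagens rose and 4 fell, with Col20a1 going from 2.73 ± 0.32 to 96.9 ± 5.8 CPM (log2 fold change 5.17 ± 0.079, edgeR adjusted p = 4.6e-68) and Col9a3 from 2.74 to 8.69 CPM. Of 25 procollagen folding, secretion and processing genes 11 rose and 4 fell, with Ppib, a prolyl isomerase that folds collagen, going from 118.5 to 186.9 CPM (0.66) and Adamts14, a procollagen N-proteinase, from 43.1 to 25.9 CPM (-0.72). Of 13 elastic fibre and microfibril genes 6 rose, led by Ltbp2 (0.90 to 10.45 CPM), and 5 fell, led by Mfap3 (58.4 to 36.5 CPM). Of 14 basement membrane genes 7 rose, Lamb2 by 0.51, and 2 fell.

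Of 15 other proteoglycan and matricellular genes 8 rose and 2 fell, with Ecm2 going from 0.57 to 5.18 CPM and Smoc1 from 9 to 58 counts over 3 libraries. Of 20 other matrix proteases and inhibitors 5 rose and 9 fell. Mmp13, a collagenase, went from 0.34 to 5.86 CPM, and Ctsk, the collagen-cleaving cathepsin K, from 0.83 to 5.92 CPM. Of 22 collagen and matrix receptors 12 rose and 6 fell, with Itga2 and Itga8, integrin subunits, going from 2 counts each over 3 libraries to 162 and 52. The median log2 changes of the 7 lists lay between -0.11 and 0.49, on the same TMM scaling and against 0.0042 for all genes.

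In the repressor induction 34 of the 126 genes of these lists were called (27.0%, against 9.81% of all genes), 19 higher and 15 lower. Of other collagens 2 rose and 2 fell of 17, with Col18a1 at 0.50 and Col14a1, which like Col12a1 coats fibrils, at -1.30 on 93 against 34 counts over 3 libraries. Processing genes gave 2 higher and 4 lower of 25 (P3h3 0.21, Adamts14 -0.23), and elastic fibre genes 1 and 1 of 13 (Loxl4 0.35, Efemp1 -0.25). Basement membrane genes gave 5 higher and none lower of 14 (Lamb2 0.22).

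Other proteoglycans gave 1 higher and 3 lower of 15. Ogn, which like Fmod is a small leucine-rich proteoglycan, fell by 0.44 from 37.1 to 27.3 CPM, and Ecm1 rose by 0.33. Proteases and inhibitors gave 4 higher and 2 lower of 20, among them Mmp9, gelatinase B (1.47, from 0.68 to 1.90 CPM), and Plau, urokinase (0.34). Receptors gave 4 higher and 3 lower of 22, with Itgb8 at -0.42 and Itga1, part of a collagen receptor, at -0.40. The list medians lay between -0.21 and 0.081. In the control induction the 7 lists held 2 called genes (1.59%, against 0.463% of all genes), Thbs1 (0.15) and Agrn (0.13), both higher. Against the control line's change, the repressor line held 12 of the 126 genes lower and 1 higher (9.52% and 0.794%, against 1.54% and 1.19% of all genes). The activator line held 50 higher and 34 lower on TMM scaling (39.7% and 27.0%, against 30.8% and 33%). Before induction the activator line held 14 higher and 31 lower (11.1% and 24.6%, against 8.92% and 10.5%), and the repressor line 7 and 6.

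**Figure D5:**
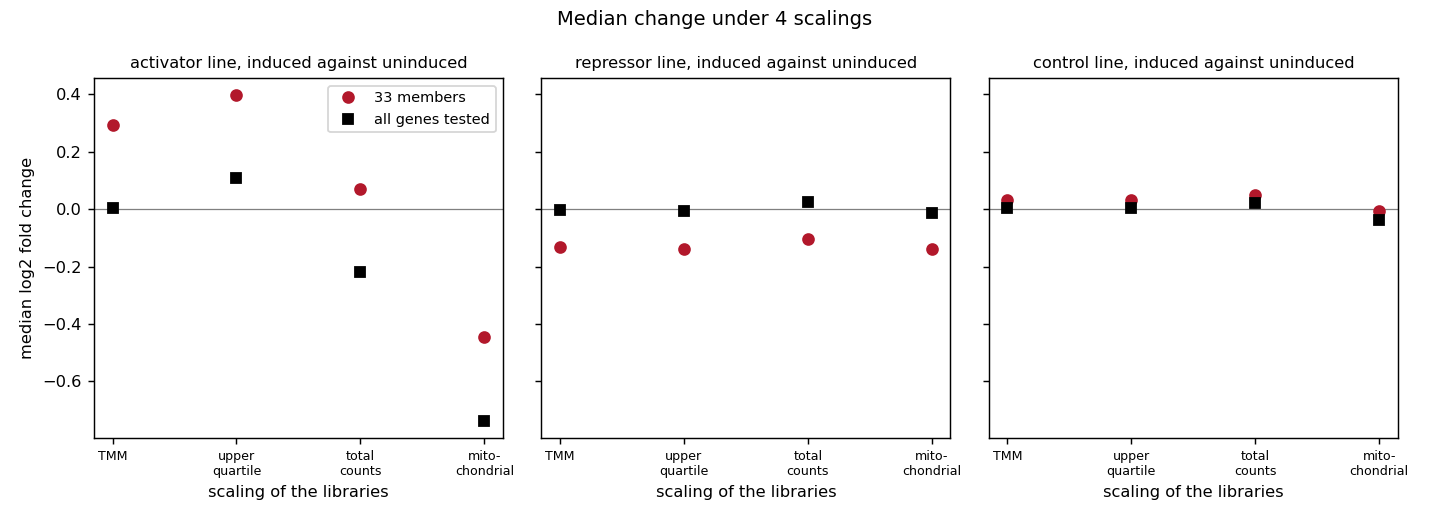
Median log2 fold change of the 33 tested members (circles) and of all 16216 genes tested (squares) on induction of each line, under 4 scalings of the libraries. In the activator line both medians move down together from upper quartile to total counts to mitochondrial scaling and the members' sign turns, while in the repressor line the members stay between -0.14 and -0.10.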

How the data were processed

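RNA was measured in 18 libraries of 3 MEF lines. Per the labels' protocols, total RNA was treated with DNase and made into stranded total RNA libraries read from both ends. The authors deposited read counts per gene, whole numbers without normalization, and the build was mm10 per the submitters' processing notes. Which aligner, counter, annotation and strand setting were used is not given in the sources used here, and counts of overlapping or antisense genes are uncertain. Exon overlaps of members with other genes involved few counts, the largest being Fbn1 with Gm9913 (2442 bases, 243 counts against 71856) and Timp3 with Syn3 (1733 bases, 130 counts against 363439). Symbols and 1-based coordinates came from GENCODE M21 (GRCm38), in which 47310 of 47937 IDs were found.

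Counts were fitted with edgeR 4.0.16 (R 4.3.3): filterByExpr with a minimum count of 10, TMM, 1 coefficient per group, robust quasi-likelihood F tests on 12 residual degrees of freedom, and Benjamini-Hochberg adjustment over 16216 genes at 0.05. The common biological coefficient of variation was 0.0246. CPM are TMM scaled, and the SE of a log2 fold change is its size over the root of F. Depth ran from 14928765 to 25262912 counts, so precision is limited by the 3 libraries per group except for members with few counts. The fit was tested on simulated counts in which few genes changed, as many up as down. That setting is unlike the activator induction, so the simulation does not bear on the choice of scaling. Alternatives were total-count, upper-quartile and mitochondrial scaling, DESeq2 1.42.0, limma-voom (limma 3.58.1), no low-count filter, only the groups compared, replicate blocks and each library left out. The members and lists were chosen with earlier results of these data known. Full statistics are given for up to 8 called members per comparison with the largest change, with values in every library, and the other members are given more briefly. From each pathway list up to 2 called genes with the largest change and at least 1 CPM in a group are named, except where a result is not reported here.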

Additional observations from a re-analysis of the deposited data

Results flagged for a closer look

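The change on induction differed between lines by the interaction test of edgeR. Compared with the control line, 22 members changed more upward and 6 more downward in the activator line, and 18 changed more downward and 0 more upward in the repressor line. The activator counts hold on TMM scaling and became 4 upward and 11 downward on total counts and 0 and 30 on mitochondrial scaling. Among the called members of the activator line the largest differences were Fbln5 (0.69 on the log2 scale), Col6a3 (-0.59), Dcn (0.55), Sparc (0.46), Col12a1 (0.43), Serpinh1 (0.36), Mmp2 (0.32) and Plod2 (0.31). Among those of the repressor line they were Fmod (-0.96), Col6a3 (-0.65), Lox (-0.46), Col11a1 (-0.39), Col3a1 (-0.38), Col1a2 (-0.36), Timp3 (-0.35) and Fbln5 (-0.34). Effector, dose and time cannot be told apart in these differences.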

How the results depend on the processing

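Scaling decided the sign of most rises in the activator line. On induction of that line Fbln5 stayed higher and Loxl1, Timp3 and Tnc stayed lower in every alternative. Under mitochondrial scaling the activator induction had 1 member higher and 31 lower, with a members' median of -0.45 and these log2 values reversed: Col1a1 -0.52, Col1a2 -0.69, Col3a1 -0.41, Col4a1 -0.39, Col4a2 -0.44, Col5a2 -0.41, Col6a1 -0.45, Col6a2 -0.41, Col11a1 -0.51, Col12a1 -0.37, Fn1 -0.54, Sparc -0.28, Fbn1 -0.61, Lox -0.44, Loxl2 -0.41, Dcn -0.14, Fmod -0.31, Bgn -0.42, Timp1 -0.58, Timp2 -0.55, Plod2 -0.41, Serpinh1 -0.38, Pcolce -0.45, Mmp2 -0.42, Fbln2 -0.56. Against the control line 0 were higher and 30 lower (median -0.46), with these reversed: Col1a1 -0.47, Col3a1 -0.41, Col4a1 -0.45, Col4a2 -0.48, Col5a2 -0.43, Col6a1 -0.46, Col6a2 -0.41, Col12a1 -0.27, Fn1 -0.53, Sparc -0.25, Lox -0.48, Loxl2 -0.41, Dcn -0.15, Fmod -0.45, Bgn -0.40, Timp2 -0.57, Plod2 -0.39, Serpinh1 -0.34, Pcolce -0.44, Mmp2 -0.39, Fbln2 -0.55, Fbln5 -0.016. Before induction 3 members were higher in the activator line, and these reversed: Col5a1 -0.0014, Fn1 -0.0065. With total counts the activator induction had 15 higher, with these reversed: Col1a1 -0.00496, Col1a2 -0.17, Fn1 -0.017, Fbn1 -0.094, Timp1 -0.059, Timp2 -0.029, Fbln2 -0.046, and against the control line 4 were higher and 11 lower, with these reversed: Col1a1 -0.0068, Col4a2 -0.014, Fn1 -0.065, Lox -0.019, Timp2 -0.11, Fbln2 -0.086. With upper quartile Col5a1 reversed to 0.017 and 3 members were lower, as with DESeq2. Of all called genes, 50.7% were higher in the activator line on TMM, 32.8% with total counts and 9.75% with mitochondrial scaling. In the repressor line the share was 53.1% on TMM and 73.4% with total counts, where 407 genes were lower in place of 745, and mitochondrial scaling called 364 higher and 353 lower.

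In the repressor induction the count of higher members was 1 with DESeq2, upper quartile or no low-count filter and 0 with mitochondrial scaling. The count of lower members there was 14 with total counts and 13 with mitochondrial scaling. In the control induction it was 0 with DESeq2 (which gave Fbln5 no adjusted p), limma-voom or mitochondrial scaling and 2 with total counts. Against the control line the repressor line had 7 lower with mitochondrial scaling. Before induction the repressor line had 2 higher with mitochondrial scaling and 9 with only the groups compared, and 0 lower with DESeq2, limma-voom, mitochondrial scaling or total counts.

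With each library left out in turn, members called higher and lower ranged over 24 to 26 and 5 to 6 (activator induction), 0 to 1 and 15 to 18 (repressor induction), 0 and 0 (control induction), 21 to 24 and 5 to 6 (activator against control), 0 and 14 to 18 (repressor against control), 4 to 8 and 5 to 8 (activator before induction) and 1 to 6 and 0 to 1 (repressor before induction). Without induced repressor library 2, 482 genes in all were lower. Genes called in the control induction numbered 41 higher and 34 lower, and 12 to 28 and 20 to 30 with a library left out.

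Same-numbered libraries of a line did not deviate together (correlations -0.085 to -0.060 in the control, -0.019 to 0.051 in the repressor and 0.017 to 0.144 in the activator line), so the numbers were not taken as pairs. A replicate block within each line left 0 members called in the control induction and 19 lower in the repressor induction. A block across lines gave 9 higher in the repressor line before induction and 19 lower on its induction, where Dcn joined (adjusted p = 6.72e-12, and 2.65e-10 with the block within lines). Dcn was called there also with only the groups compared (0.0124) and with mitochondrial scaling (9.84e-09), and not by the other scalings or without the low-count filter. Precision is limited by 3 libraries per group, and for Postn, Eln, Lum and Thbs2 by their few counts. The cause of these shifts was not tested.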
